A study of Mus musculus with 4 samples.

Results

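The mitochondrial ribosomal protein genes were followed in mouse fetal liver erythroid progenitors with and without Rcor1. The genes were taken by name from the deposited count table. Symbols beginning with Mrpl or Mrps and a number were kept, names with -ps were left out, and at least 40 counts summed over the 4 libraries were required. Of 78 symbols with that pattern, 4 were -ps rows, and the remaining 74 all passed the count minimum, out of 35927 genes in the table. The lowest sum among them was 138 counts, and all 74 also passed the filter of the statistical test. Mrps34 and Mrpl53 were not found by symbol and are not analysed here.

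The cells were CD71+ TER119- erythroid progenitors sorted from C57BL/6 fetal liver at embryonic day E13.5. CD71 is the transferrin receptor, and TER119 marks later erythroid cells. Control libraries held RNA of Rcor1+/+ and Rcor1+/- embryos together, and mutant libraries held RNA of Rcor1-/- embryos. Every library pooled RNA of several fetal livers, and each group had 2 libraries, described by the submitters as biological replicates. The proportion of the control genotypes in the pools, and the part of the gene that the mutant allele lacks, are not stated in the labels. Rcor1 encodes CoREST, a scaffold protein of chromatin complexes that hold a histone demethylase and histone deacetylases.

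The mitochondrial ribosome translates the few messenger RNAs that the mitochondrial genome encodes, all of them for subunits of the respiratory chain and the ATP synthase. Its ribosomal RNAs come from mitochondrial DNA, but every one of its proteins is encoded in the nucleus, made in the cytosol and imported. Many of the proteins descend from bacterial ribosomal proteins, and the others were added in the mitochondrial lineage. Erythroid precursors need respiring mitochondria for heme synthesis, which begins and ends in that organelle, and they discard their mitochondria late in maturation.

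Library totals were 26892375 and 22817080 counts in the controls and 25186819 and 15053229 in the mutants. Levels below are CPM, counts scaled to library size, after TMM scaling, which corrects library totals for composition. Rcor1 itself had 160 and 174 CPM in the controls and 77.8 and 78.8 CPM in the mutants, a log2 fold change of -1.09 ± 0.06 (standard error; edgeR adjusted p = 4.6e-11). The groups did not overlap, and transcripts of the gene were still counted in the mutant libraries. Of 10 erythroid marker genes, 9 fell and Gfi1b rose, and their summed share was 0.717% and 0.728% of counts in the controls against 0.645% and 0.620% in the mutants. The summed shares of hepatoblast, megakaryocyte, mesenchymal, macrophage, endothelial and granulocyte markers were higher in both mutant libraries, though not every list moved as a whole. Hepatoblast genes (7 of 9 tested rose) went from 0.0934% and 0.0923% to 0.140% and 0.139%, and megakaryocyte genes (6 of 8 rose, Vwf fell) from 0.0106% and 0.0104% to 0.0311% and 0.0297%. Mesenchymal genes (7 of 8 rose) took at most 0.0027% of counts, macrophage genes (2 of 8 rose) at most 0.00267%, and endothelial genes (4 of 8 rose) at most 0.018%. Granulocyte genes (3 of 8 rose, Elane fell) took at most 0.0115% and had a median log2 fold change of -0.24. Over all genes tested, 28.3% rose and 29.2% fell. Of 6 lymphoid genes only Cd3g had enough counts to be tested, and it rose; 3, 4, 0 and 3 of the 6 had no count in control 1, control 2, mutant 1 and mutant 2. The part of these differences in the results below was not tested. In RNA of sorted pools, fewer cells of a type and less RNA per cell cannot be told apart.

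Most mitochondrial ribosomal protein transcripts were lower in the Rcor1 mutant, each by a small amount. In edgeR's quasi-likelihood test, at an adjusted p under 0.05 over all genes tested, 45 of the 74 fell, 4 rose and 25 did not pass. Over all 13140 genes tested 57.5% passed: 29.2% fell and 28.3% rose. The fold changes of 65 of the 74 lay below 0, with a median of -0.23 on the log2 scale, quartiles of -0.36 and -0.12, and a range from -0.56 for Mrpl38 to 0.51 for Mrps31. The median of all genes tested was 0.01. No gene of the family changed by 1.5-fold or more, whereas 23.4% of all genes tested did so and passed the test. Among genes tested with a mean of at least 10 CPM, the share was 14.8%. The median standard error of a gene in the family was 0.06 on the log2 scale.

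Both mutant libraries lay below both controls for 53 of the 74 genes, above both controls for 8, and overlapped with them for 13. The same held for 38.4% and 39.5% of all genes tested, in that order. Of 8342 genes tested with a mean of at least 10 CPM, 4221 lay below both controls in both mutants and 2655 above. Of the 68 genes of the family at that level, 50 lay below and 7 above. Taken as a share of all counts, the 74 genes together held 0.825% (Wilson 95% interval 0.822% to 0.829%) and 0.777% (0.773% to 0.780%) in the controls. Their share in the mutants was 0.758% (0.754% to 0.761%) and 0.738% (0.734% to 0.742%). The groups did not overlap, but control 2 lay closer to mutant 1 than to control 1, and these intervals cover counting error only. With 2 libraries a group, the smallest p of an exact permutation test is 0.33, and no test of the shares was made. Summed CPM was 8670 and 8120 in the controls against 7210 and 7060 in the mutants.

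**Figure D1:**
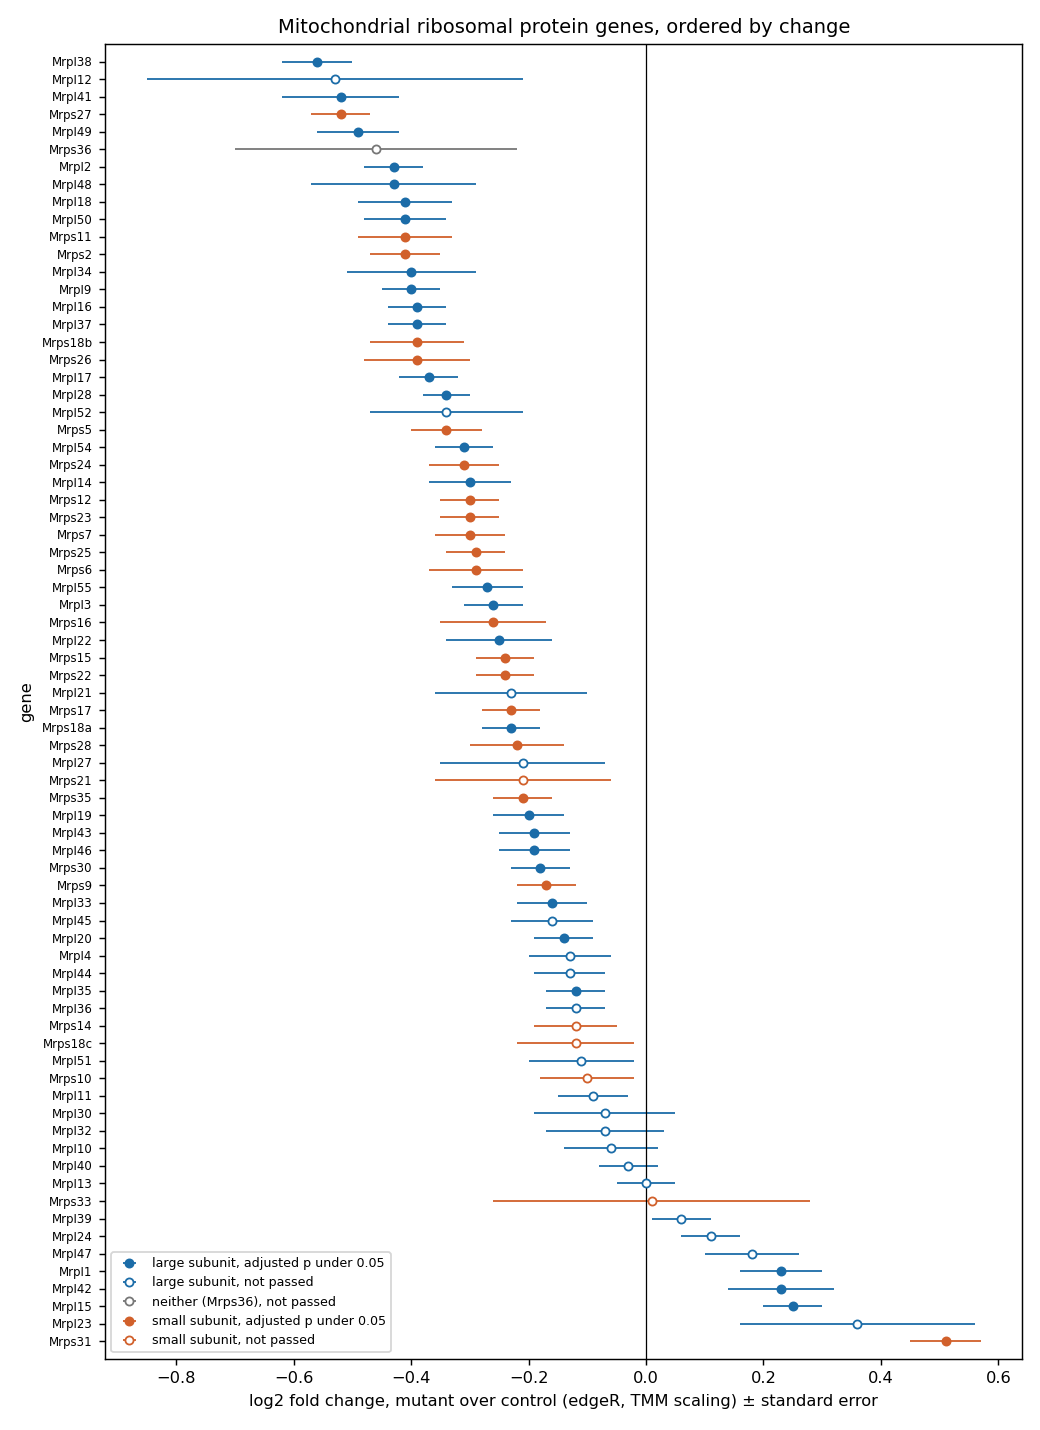
Log2 fold change of mutant over control for each of the 74 genes, ordered from the lowest to the highest, with the standard error as bars. Filled points passed an edgeR adjusted p of 0.05, and colour gives the subunit. The points run from -0.56 to 0.51 and 65 of them lie below 0.

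**Figure D2:**
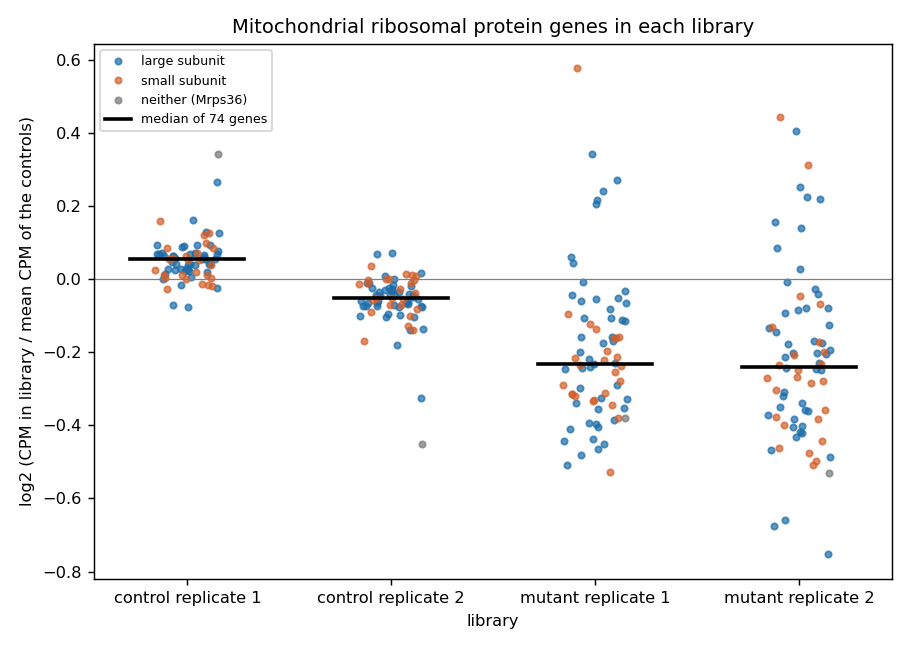
Each point is 1 of the 74 genes in 1 library, as the log2 of its CPM over the mean CPM of both controls. Black lines mark the library medians, which were 0.05 and -0.05 in the controls and -0.23 and -0.24 in the mutants.

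Genes with high counts leaned lower in the mutant, so the family was also read against them. Of 8342 genes tested with a mean of at least 10 CPM, 41.2% fell and 23.7% rose, with a median log2 fold change of -0.09. Of the 68 mitochondrial ribosomal protein genes at that level, 44 (64.7%) fell and 4 (5.88%) rose, with a median of -0.24. No test of the family against other genes was made. Within the family, the log2 fold change had a rank correlation of -0.18 with mean CPM over 74 genes and 0.09 with transcript length over 73. These are descriptions across genes that share libraries.

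**Figure D3:**
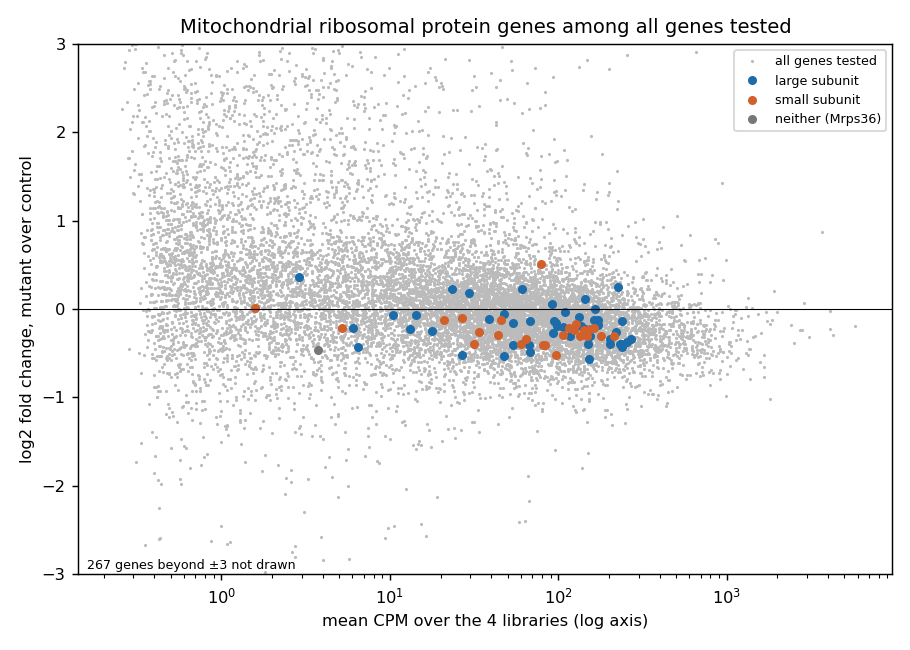
Log2 fold change of mutant over control against mean CPM (log axis) for all genes tested, in grey, and for the 74 genes of the family, in colour by subunit. Most of the family lies to the right, among abundant genes, and below 0, and no point of the family is beyond 0.6 in either direction.

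The scaling of the libraries set how many of these small differences passed. With library totals in place of TMM factors, the median of all genes tested moved from 0.01 to 0.15, and 26 of the 74 fell while 9 rose, against 19.4% and 38.9% of all genes tested. Upper quartile scaling gave 34 falls and 7 rises, against 23.5% and 33.7% of all genes, and RLE scaling gave 45 and 4, as TMM did. DESeq2, which differs in its test as well, gave 39 and 3, against 24.3% and 20.7%. The share of lower calls among the called genes of the family was 74.3% with library totals, against 91.8% with TMM, and for all genes it was 33.3% against 50.7%. Among genes tested with a mean of at least 10 CPM, that share was 42.6% with library totals against 63.5% with TMM. Their median was 0.05 with library totals and -0.09 with TMM, so the family lay closer to them than to all genes. The family's median was -0.10 with library totals, and its distance from the median of all genes was -0.24 under both scalings. A change of scaling shifts the fold changes of all genes alike, so this distance could not move with it. In the authors' deposited table, 22 of the 74 were lower and 8 higher at an adjusted p under 0.05, against 17.7% and 37.7% of its 13234 genes. The log2 fold changes of the authors' deposited table were within 0.01 of the values with library totals for all 74 genes.

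The large subunit forms the peptide bond. Of its 48 genes counted here, which include Mrps30 and Mrps18a despite their names, 26 fell, 3 rose and 19 did not pass, with a median log2 fold change of -0.20. With library totals 15 fell and 8 rose, with a median of -0.06. The 31 with a bacterial homolog (16 fell, 2 rose) had a median of -0.20. The 17 found only in mitochondrial ribosomes (10 fell, 1 rose) had a median of -0.19.

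The largest fall of the family was that of Mrpl38, a mitochondria-specific protein of the central protuberance, the knob of the large subunit that faces the small one. It had 191 and 174 CPM in the controls and 131 and 116 CPM in the mutants, a log2 fold change of -0.56 ± 0.06 (edgeR adjusted p = 5.43e-06). Every mutant value was well below every control value, and no other gene's transcript shared a 36-base stretch with its own. Mrpl41, another mitochondria-specific protein, had 33.2 and 30 CPM against 23.8 and 19.8 CPM, a log2 fold change of -0.52 ± 0.10 (edgeR adjusted p = 0.000191). Mrpl49, also specific to mitochondria, had 83.2 and 75.4 CPM against 55.7 and 57.3 CPM (-0.49 ± 0.07, edgeR adjusted p = 8.38e-06). In both genes the gap between groups was wider than the gap between replicates. Mrpl41 shared 21.9% of its 36-base windows with Gm6434.

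Mrpl2, the homolog of the bacterial protein next to the peptidyl transferase centre, was among the 3 genes with the highest mean CPM and among the largest falls. Its level was 284 and 268 CPM in the controls and 200 and 209 CPM in the mutants (log2 fold change -0.43 ± 0.05, edgeR adjusted p = 6.98e-07). The other genes with the highest CPM fell as well, without overlap of the groups. Mrpl28 had 307 and 296 CPM against 238 and 236 CPM (-0.34 ± 0.04, edgeR adjusted p = 4.48e-06). Mrpl17, at the exit of the peptide tunnel, had 288 and 287 CPM against 217 and 227 CPM (-0.37 ± 0.05, edgeR adjusted p = 2.2e-06). Mrpl3, a core protein of the large subunit in which human mutations cause mitochondrial disease, had 247 and 232 CPM against 208 and 193 CPM (-0.26 ± 0.05, edgeR adjusted p = 0.000374).

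Of 6 genes of the central protuberance, 4 fell and 2 did not pass, with a median log2 fold change of -0.31. Besides Mrpl38 they included Mrpl18, whose bacterial homolog binds 5S ribosomal RNA, at 65.7 and 57.4 CPM in the controls and 45.3 and 47.6 CPM in the mutants (-0.41 ± 0.08, edgeR adjusted p = 0.000243). Mrpl48 was scarce, at 7.58 and 7.33 CPM against 5.51 and 5.53 CPM (-0.43 ± 0.14, edgeR adjusted p = 0.0133). The groups were apart in both genes. The call of Mrpl48 was lost with DESeq2 (adjusted p = 0.129), with library totals (edgeR adjusted p = 0.0796) and without mutant replicate 1 (edgeR adjusted p = 0.0781). Mrpl40, of the same structure, did not pass, at 113 and 108 CPM against 106 and 112 CPM, values that overlapped.

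None of the 3 genes of the stalk, the arm that recruits translation factors, passed the test. Mrpl10, which anchors the stalk, had 51.0 and 46.2 CPM in the controls and 47.5 and 46.0 CPM in the mutants (log2 fold change -0.06 ± 0.08, edgeR adjusted p = 0.549). Mrpl11, at its base, had 142 and 130 CPM against 132 and 123 CPM (-0.09 ± 0.06, edgeR adjusted p = 0.182). The values overlapped in both, and both signs turned under library totals, to 0.08 and 0.04. Mrpl12, the mobile stalk protein, also known to bind the mitochondrial RNA polymerase, had the largest standard error of the family. It had 67.7 CPM in control 1 and 44.9 in control 2, against 44.1 in mutant 1 and 33.4 in mutant 2. The mutants were the lower group by a narrow margin, but the controls differed by over 1.5-fold and replicate 2 was the lower library in each group (-0.53 ± 0.32, edgeR adjusted p = 0.293). Mrpl12 passed with limma-voom (adjusted p = 0.0195), without edgeR's robust option (adjusted p = 0.0146) and without control replicate 2 (log2 fold change -0.80). In the authors' deposited table it is lower by -0.39 with an adjusted p of 1.05e-05.

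Around the exit of the peptide tunnel the 6 genes went both ways, 3 below 0 and 3 above, with a median of -0.02, and with 0.11 under library totals. Mrpl17 and Mrpl22 fell. Mrpl23, Mrpl24 and Mrpl47 lay above 0 without overlap of the groups and did not pass, and Mrpl45 was at -0.16 (edgeR adjusted p = 0.0797). Mrpl24 had 140 and 139 CPM against 146 and 156 CPM (0.11 ± 0.05, edgeR adjusted p = 0.0728), with exons of Rrnad1 on the opposite strand over 26.3% of its own.

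Mrps30, a large subunit protein specific to mitochondria, had 190 and 174 CPM in the controls against 163 and 157 CPM in the mutants (-0.18 ± 0.05, edgeR adjusted p = 0.00655). The groups did not overlap, and the call was lost with upper quartile scaling, with library totals, without control replicate 1 and without mutant replicate 2. Mrpl44, a protein with a ribonuclease III-like fold, had 101 and 95.9 CPM against 87.1 and 93.0 CPM, which did not pass (-0.13 ± 0.06, edgeR adjusted p = 0.0646).

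The small subunit decodes the messenger RNA. Of its 25 genes, 19 fell, Mrps31 rose and 5 did not pass, with a median log2 fold change of -0.26. With library totals 11 fell and 1 rose, with a median of -0.12. All 17 with a bacterial homolog lay below 0, from -0.41 to -0.10, and 13 of them fell. Of 8 specific to mitochondria, 6 fell and 1 rose, with a median of -0.26. The difference in medians between the subunits was not tested. Mrps27, a mitochondria-specific protein with pentatricopeptide repeats, fell the most. Its level was 113 and 115 CPM in the controls and 79.0 and 80.1 CPM in the mutants (-0.52 ± 0.05, edgeR adjusted p = 3.09e-07), so replicates differed far less than groups. Exons of 6430562O15Rik lie on the opposite strand over 24.2% of the exons of Mrps27. Mrps11, on the platform near the exit of the messenger RNA, had 103 and 86.7 CPM against 74.7 and 67.2 CPM (-0.41 ± 0.08, edgeR adjusted p = 0.00119). Mrps12, the homolog of the bacterial decoding-centre protein that sets accuracy, had 149 and 147 CPM against 119 and 120 CPM (-0.30 ± 0.05, edgeR adjusted p = 5.17e-05). Mrps22, in which human mutations cause mitochondrial disease, had 152 and 155 CPM against 127 and 134 CPM (-0.24 ± 0.05, edgeR adjusted p = 0.0006). Groups were apart in all 4 genes, and with library totals the call of Mrps22 was lost (edgeR adjusted p = 0.0878).

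Mammals carry 3 homologs of bacterial S18, of which Mrps18a sits in the large subunit. Mrps18a had 158 and 154 CPM in the controls and 133 and 133 CPM in the mutants (-0.23 ± 0.05, edgeR adjusted p = 0.000551, lost with library totals at 0.0989). Mrps18b had 72.3 and 64.1 CPM against 54.6 and 49.5 CPM (-0.39 ± 0.08, edgeR adjusted p = 0.00037). Mrps18c had 24.2 and 19.3 CPM against 20.3 and 19.8 CPM (-0.12 ± 0.10, edgeR adjusted p = 0.35). The groups were apart in the first 2 and overlapped in Mrps18c. Mrps18b shared 64.2% of its 36-base windows with transcripts of other genes, mostly Gm16279 on the opposite strand. The labels do not say whether counting used strand.

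Mrps36 stands outside both subunits, since its product is now placed in the alpha-ketoglutarate dehydrogenase complex. It had 5.47 and 3.16 CPM against 3.32 and 2.99 CPM, which overlapped (-0.46 ± 0.24, edgeR adjusted p = 0.122). Without control replicate 1 the fold change was 0.00.

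The 4 genes that rose stood against the direction of the family. Mrps31, a mitochondria-specific protein of the small subunit head, had 67.7 and 62.7 CPM in the controls and 97.2 and 88.6 CPM in the mutants, a log2 fold change of 0.51 ± 0.06 (edgeR adjusted p = 3.11e-06). Mrpl15, the homolog of a core bacterial protein, had 214 and 201 CPM against 251 and 242 CPM (0.25 ± 0.05, edgeR adjusted p = 0.000318). Both passed under all 15 settings tried, and in both the groups did not overlap. Mrpl1, of the mobile L1 stalk beside the exit site for transfer RNA, had 53.4 and 59.1 CPM against 64.9 and 67.0 CPM (0.23 ± 0.07, edgeR adjusted p = 0.0105). Without control replicate 1 its adjusted p was 0.172, and without mutant replicate 2 it was 0.0511 (edgeR). Mrpl42, specific to mitochondria, had 22.5 and 20.3 CPM against 25.3 and 25 CPM (0.23 ± 0.09, edgeR adjusted p = 0.0285). The groups did not overlap in either gene. Mrpl42 was lost with DESeq2 (adjusted p = 0.16), with no filter on counts, and without control replicate 2, mutant replicate 1 or mutant replicate 2.

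Levels spread widely, although the particle holds most of these proteins, Mrpl12 aside, in equal number. Per kilobase of transcript, the control mean ran from 1.39 CPM for Mrps33 to 545 CPM for Mrpl52, with a median of 49.4 over 73 genes. Mrpl33 had no transcript match. The large subunit had a median of 50.5 CPM per kilobase (47 genes) and the small subunit 44.7 (25 genes). The control level had a rank correlation of -0.55, over 73 genes, with the share of a transcript's 36-base windows found in another gene's transcript. The 56 genes with under 20% shared windows had a median of 57.6 CPM per kilobase, and the 17 with more had 27.1. The labels do not say how reads with several matches were counted, and the part of this in the levels was not tested.

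**Figure D4:**
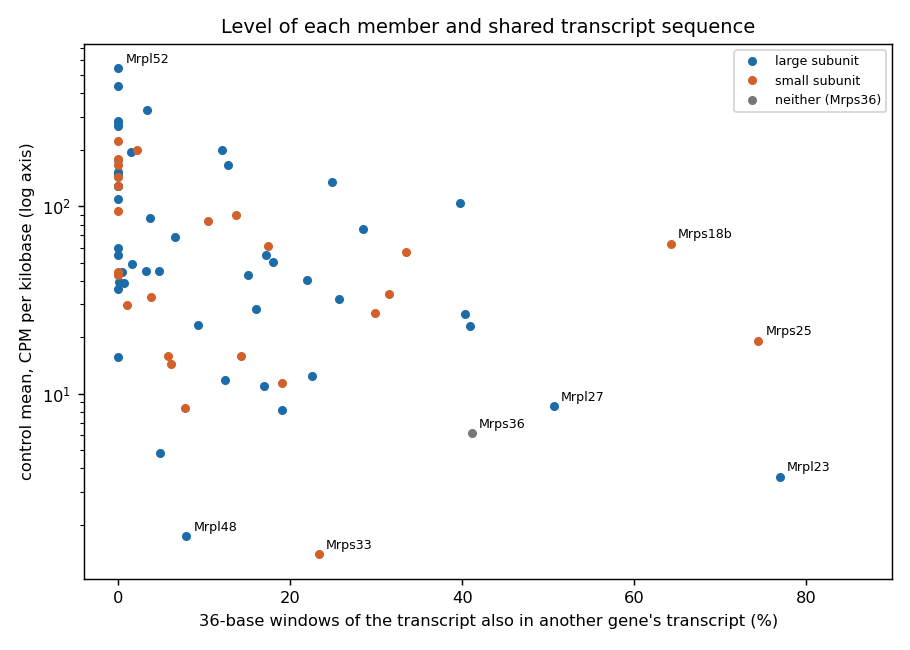
Control mean level, in CPM per kilobase of transcript on a log axis, against the percentage of the transcript's 36-base windows that also occur in another gene's transcript, for 73 genes. Mrpl23, Mrps25 and Mrps18b share the most sequence, and Mrps33, Mrpl48 and Mrpl23 have the lowest levels.

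Mrpl23 shows what such sharing touches. It shared 76.9% of its windows with the row Mrpl23-ps1 and held 68, 51, 84 and 52 counts in control 1, control 2, mutant 1 and mutant 2, while Mrpl23-ps1 held 1198, 803, 923 and 597. As CPM, Mrpl23 had 2.66 and 2.34 against 3.17 and 3.31 (0.36 ± 0.20, edgeR adjusted p = 0.126), and Mrpl23-ps1 had 46.8 and 36.8 against 34.8 and 38.0 (-0.21 ± 0.11, edgeR adjusted p = 0.114). Most counts thus stood on the -ps row, neither row passed, and their assignment is uncertain. Mrps33, the scarcest gene, had 1.56 and 1.51 CPM against 1.32 and 1.91 CPM (0.01 ± 0.27, edgeR adjusted p = 0.971), which overlapped, and its sign turned under 4 settings. Mrps25 fell (-0.29 ± 0.05, edgeR adjusted p = 0.000155), but exons of Nr2c2 lie on the opposite strand over 69.8% of its own. Among the 56 genes with under 20% shared windows, 37 fell and 3 rose, with a median of -0.25. Among the 17 with more, 7 fell and 1 rose, with a median of -0.20, and with library totals 3 fell and 4 rose.

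The promoters of mitochondrial ribosomal protein genes are known for sites of NRF1, of the ETS factor GABP and of YY1, so their letters were searched. RefSeq promoters (GRCm38.p6) of 300 bases, 250 before and 50 after the start, were matched by symbol for 66 of the 74 genes, 72 promoters in all. The letters were GCGCA, any base and GCGC for NRF1, CCGGAAG for GABP/ETS and AANATGGCG for YY1, on both strands, and none of these contains another. NRF1 letters were in 16.7% of the family's promoters, against 10.1% for tested genes and 4.6% for all promoters of the table. GABP/ETS letters were in 31.9%, against 17.2% and 8.86%. YY1 letters were in 13.9%, against 5.07% and 2.38%. Among tested genes of at least 10 CPM the shares were 12.1%, 20.8% and 6.41%, still below those of the family. The family's shares rest on 12, 23 and 10 of 72 promoters, with the NRF1 share the nearest to that of other genes. No test of these shares was made. At least 1 of the 3 was in 54.2%, against 34.5% for tested genes of at least 10 CPM. A match is a description of the letters and no binding was measured.

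The stretches below belong to 4 genes described above, chosen for the largest fold changes with a match before the start outside annotated exons. They are read 5′ to 3′ on the gene's strand, capitals mark the matched letters, and bases in an annotated exon of any gene (GENCODE M21) were cut away. Mrpl12 (chr11:120484387-120484612, plus strand) holds NRF1 letters, as their reverse complement, from base -81 before the start. Next to an annotated exon, Mrps27 (chr13:99344706-99344785, plus strand) holds GABP/ETS letters, as their reverse complement, from -48. Mrpl48 (chr7:100583131-100583380, minus strand) holds them, also reversed, from -34. Of the several Mrpl48 promoters searched, this is the most downstream, and the others held none of the letters. Mrpl17 (chr7:105811100-105811337, minus strand) holds GABP/ETS letters from -237 and NRF1 letters from -49.
Mrpl12: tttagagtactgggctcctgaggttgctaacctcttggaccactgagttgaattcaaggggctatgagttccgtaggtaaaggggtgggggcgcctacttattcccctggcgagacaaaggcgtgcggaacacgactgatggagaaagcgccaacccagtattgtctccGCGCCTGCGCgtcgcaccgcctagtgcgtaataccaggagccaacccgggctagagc
Mrps27: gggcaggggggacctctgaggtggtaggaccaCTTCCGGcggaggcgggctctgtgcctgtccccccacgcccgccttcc
Mrpl48: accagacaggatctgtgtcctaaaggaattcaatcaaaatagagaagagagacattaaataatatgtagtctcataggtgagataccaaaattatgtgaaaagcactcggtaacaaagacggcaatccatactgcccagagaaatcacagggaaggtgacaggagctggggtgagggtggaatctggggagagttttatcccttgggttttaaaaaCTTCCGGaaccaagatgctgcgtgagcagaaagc
Mrpl17: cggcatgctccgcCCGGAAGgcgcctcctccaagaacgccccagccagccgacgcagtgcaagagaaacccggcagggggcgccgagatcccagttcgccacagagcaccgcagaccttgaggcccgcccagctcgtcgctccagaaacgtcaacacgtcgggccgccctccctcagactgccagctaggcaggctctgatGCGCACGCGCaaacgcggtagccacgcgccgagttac

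Genes with and without these letters had the same median change. The 39 genes with at least 1 match in any of their promoters had a median log2 fold change of -0.24 (24 fell, 1 rose). The 27 without had -0.24 (16 fell, 2 rose). For GABP/ETS letters, 16 of 23 genes with a match fell (median -0.26) and 24 of 43 without fell (median -0.19). With NRF1 letters 5 of 12 fell (median -0.19), against 35 of 54 without (median -0.24). With YY1 letters 7 of 10 fell and 1 rose (median -0.22), against 33 of 56 and 2 without (median -0.24). These differences were not tested. Of the factors themselves, Nrf1 and Yy1 fell and Gabpa did not pass. Nrf1 had 194 and 197 CPM in the controls and 155 and 151 CPM in the mutants (-0.35 ± 0.05, edgeR adjusted p = 6.67e-06). Yy1 had 158 and 155 CPM against 127 and 125 CPM (-0.31 ± 0.05, edgeR adjusted p = 3.8e-05). Gabpa, the DNA-binding subunit of GABP, had 105 and 116 CPM against 110 and 115 CPM, which overlapped (0.02 ± 0.06, edgeR adjusted p = 0.761).

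Genes that work with the mitochondrial ribosome were taken from lists by role. Across the 6 lists, 39 of 73 genes tested fell and 5 rose, where 29.2% of all genes tested fell and 28.3% rose. Among genes tested with a mean of at least 10 CPM, 41.2% fell and 23.7% rose. No test of the lists against other genes was made. Ribosomal proteins with other names went the way of the family: 5 of 6 fell, among them Dap3, a GTP-binding protein of the small subunit (311 and 307 against 260 and 259 CPM; -0.25 ± 0.04, edgeR adjusted p = 0.000103), Mrp63 (-0.25) and Ict1, a peptidyl-tRNA hydrolase of the large subunit (-0.17). Chchd1 rose by 0.17 (edgeR adjusted p = 0.00975). With library totals, 1 of the 6 fell. Of 23 assembly factors, 13 fell and Mterfd1 rose (0.23), with a median of -0.22. The largest falls exceeded any in the family itself. Ddx28, an RNA helicase, had 101 and 88.2 CPM against 56.8 and 58.2 CPM (-0.72 ± 0.07, edgeR adjusted p = 1.16e-07). Eral1, a chaperone of the small ribosomal RNA, had 85.7 and 87.1 CPM against 53.3 and 53.3 CPM (-0.70 ± 0.06, edgeR adjusted p = 4.41e-08). Mpv17l2, which acts in large subunit assembly, changed by -0.67 ± 0.07 (edgeR adjusted p = 2.59e-07).

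Of 14 translation factors, 8 fell and 2 rose, with a median of -0.19. Tsfm, the nucleotide exchange factor of elongation, had 160 and 144 CPM against 113 and 102 CPM (-0.50 ± 0.06, edgeR adjusted p = 1.17e-05), and Mrrf, the recycling factor, changed by -0.45 ± 0.11. Tufm, the elongation factor itself, was at -0.86 ± 0.15 (edgeR adjusted p = 0.000115) on only 7.43 and 7.33 against 4.30 and 3.69 CPM, with 76.0% of its windows shared with Gm9755, so its counting is uncertain. The initiation factor Mtif2 went the other way, from 90.7 and 94.6 to 127 and 132 CPM (0.48 ± 0.05, edgeR adjusted p = 6.72e-07), as did Guf1 (0.18). Of 9 genes of mitochondrial DNA transcription and replication, 4 fell (44.4%) and none rose. The largest falls were those of the RNA polymerase Polrmt (-0.52 ± 0.06), Polg (-0.30) and the helicase Peo1 (-0.28). Of 11 genes of mitochondrial RNA processing and decay, 4 fell (36.4%) and none rose. There the largest falls were those of Elac2, which cuts transfer RNA ends (-0.55 ± 0.05), Tbrg4 (-0.46) and Hsd17b10 (-0.33). The median of that list was -0.11, turning to 0.02 with library totals. Both shares of falls lay near the 41.2% among genes tested with a mean of at least 10 CPM. Of 10 regulators of mitochondrial biogenesis, 5 fell, led by the coactivators Hcfc1 (-0.59 ± 0.04) and Pprc1 (-0.42) and by the nuclear receptor Esrra (-0.38), while Myc rose by 0.13 (edgeR adjusted p = 0.0328). Ppargc1a had too few counts to test.

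The mitochondrial ribosomal protein genes were set beside the cytosolic ribosomal proteins and the nuclear subunits of oxidative phosphorylation, both taken by symbol. Of 77 cytosolic ribosomal protein symbols, 20 fell and 2 rose, with a median of -0.15 and a median standard error of 0.11, against 0.06 in the mitochondrial set. Over all genes tested 29.2% fell, and over those of at least 10 CPM 41.2%, and the cytosolic share of calls lay below both. By size and sign the cytosolic set lay lower than both: 62 of the 77 were below 0, and the 2 backgrounds had medians of 0.01 and -0.09. With library totals 10 fell and 9 rose. Of 75 oxidative phosphorylation symbols, 42 fell and 3 rose, with a median of -0.20, and with library totals 26 fell and 11 rose, with a median of -0.06. The mitochondrial ribosomal set had 45 of 74 falling and -0.23. No test of a difference between these sets was made. Transcripts of the mitochondrial genome, the substrate of this ribosome, were not set beside them. Among such rows, 12 hold no value in any library, mt-Co2 and 11 transfer RNAs.

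**Figure D5:**
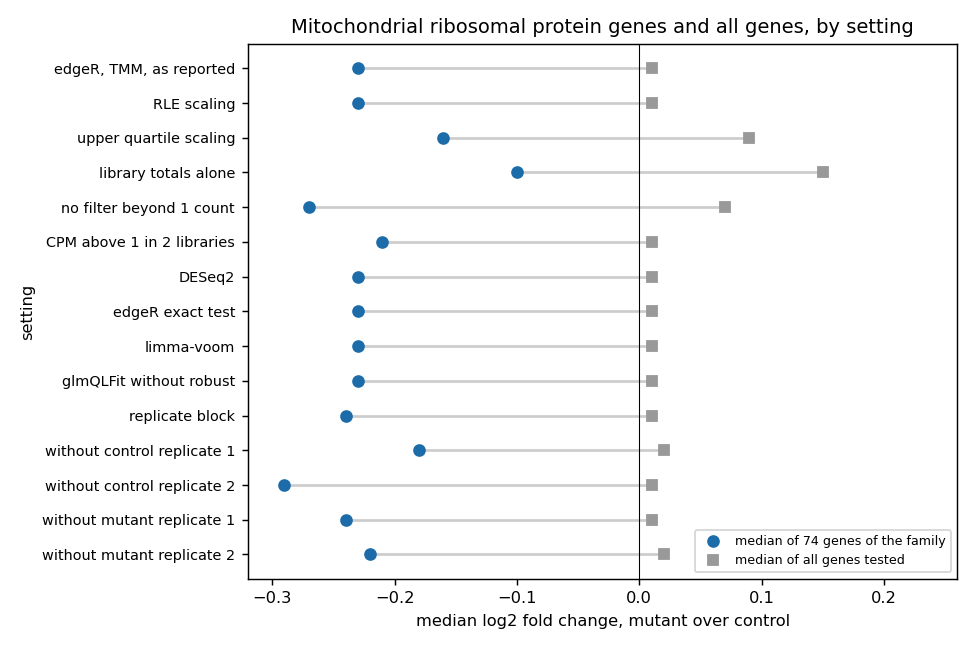
Median log2 fold change of mutant over control for the 74 genes (circles) and for all genes tested (squares) under 15 settings of scaling, filter, test and libraries. The circles lie between -0.29 and -0.10, below the squares in every setting drawn. A change of scaling alone shifts all genes alike, so it could not alter the distance between circle and square.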

How the data were processed

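The authors deposited whole-number counts per gene, raw per the file headers and their unequal library totals, plus log2 fold changes and p-values from a comparison of theirs. FastQC, Bowtie and edgeR with the mm9 genome were used, per the submitters' processing notes, without versions. Columns named WT were assigned to the controls by number. Of 35939 rows, 12 mitochondrial rows that held NA were left out. The fit used R 4.3.3, edgeR 4.0.16 and limma 3.58.1 with filterByExpr (13140 genes), TMM (factors 0.951 to 1.05), robust quasi-likelihood test, Benjamini-Hochberg over all genes, threshold 0.05. Standard errors are the size of the log2 fold change divided by the root of the F statistic. The common dispersion, 0.00232, corresponds to a variation of 4.81% between pools, so small changes pass, and p-values measure the spread between these pools only.

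Named genes were a fixed set, the 8 largest called falls and rises without overlap, the 3 highest and 3 lowest by CPM, genes whose replicates differed by over 1.5-fold at 10 CPM or more, members of counts of 5 or fewer, and up to 3 called genes each way of the other lists; a few others, such as Mrpl40, Mrpl24 and Mrps25, were chosen after their values were seen, as were the motif letters. Genes and lists were chosen with earlier results of these data known. Shared 36-base windows and transcript lengths came from GENCODE M21 (GRCm38) and promoters from RefSeq; the deposited files give no coordinates. Alternatives were other scalings and filters, limma-voom, DESeq2 1.42.0, the exact test of edgeR, a non-robust fit, the replicate block and each library left out. On counts simulated for 12930 genes of this comparison, the fit found 16 of 80 changes of 1.2-fold and 39 of 56 of 1.5-fold. It found 45 of 63 changes of 2-fold, with no wrong direction, and called 8 of 12731 genes left unchanged. Most of the 12930 were thus left unchanged, whereas 57.5% of all genes tested passed in the measured counts. Whether these rates hold for the measured counts was not tested.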

Additional observations from a re-analysis of the deposited data

How the results depend on the processing

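The count of falling genes was 45 and ranged from 34 to 54 over scalings other than library totals, filters, tests, the replicate block and left-out libraries, and was 26 with library totals. It was 26 in the large and 19 in the small subunit, which hold fewer genes. Leaving out each library in turn gave 37 to 53. The count of rising genes was 4, and 7 with upper quartile scaling, 9 with library totals, 1 in the small subunit alone and 2 to 3 with a library left out, the 2 being without mutant replicate 2. The median of -0.23 was -0.16 with upper quartile scaling, -0.10 with library totals and from -0.29 (without control replicate 2) to -0.18 (without control replicate 1) with a library left out. Of the other lists, 5 genes rose, against 9 with upper quartile scaling, 14 with library totals, 2 with no filter, 2 with DESeq2 and 2 to 4 with a library left out, 2 without mutant replicate 1 and 3 without control replicate 1. With the smaller set of under 20% shared windows, chosen after seeing the data, 37 fell and 3 rose. Removing a library leaves its group with 1 pool that is assumed to vary like the others.

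Over all 15 settings, 26 genes were called lower and 2 higher in every setting, 11 in none, and 0 in both directions. Signs turned in some named genes that had not passed, and in others outside the named set that had not passed. Among the latter, Mrpl13 ran from -0.05 to 0.13 and Mrpl32 from -0.14 to 0.07. The sign also turned in Mrpl35, which had fallen (-0.12) and reached 0.02 at its highest. Mrpl10 went to 0.02 with upper quartile scaling, 0.08 with library totals and, with a library left out, from -0.14 to 0.01 (without control replicate 1). Library totals gave 0.04 for Mrpl11, 0.01 for Mrpl44 and 0.02 for Mrps18c. With a library left out, Mrps18c ran from -0.28 to 0.05 and Mrps36 from -0.79 to 0.00, the upper values being without control replicate 1. Mrps33, at 0.01, went to -0.02 with no filter, -0.01 with limma-voom, -0.02 without control replicate 2 and -0.21 without mutant replicate 2, with 0.31 as the highest. The cause was not tested. Of the other alternative values of named genes, 350 kept their call, 16 lost it and 14 gained it.

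With the replicate number as a block, 54 genes fell, 6 rose and the median was -0.24, and 8 genes of the other lists rose; Mrpl11, Mrpl12, Mrpl44 and Mrps36 then passed. Deviations of libraries with the same number had a correlation of 0.468 over 8343 genes, but with 2 pairs and no label that ties the numbers this does not show pairing. Of the genes with few counts, Mrps33, Mrpl23, Mrps36 and Mrpl48 had standard errors of 0.27, 0.20, 0.24 and 0.14; how much of this is depth and how much spread between pools was not tested.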
